A study of [Candida] boidinii with 12 samples.

Results

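Among the genes of the methylotrophic yeast Candida boidinii, 79 were both abundant and near constant across 2 strains and 2 carbon sources, out of 5712 rows in the count files. The rule asked for a mean of at least 100 CPM (a gene's count scaled to a common library total) over 12 libraries, and for 4 log2 ratios of group means that all lay between -0.3 and 0.3, a change of less than 1.23-fold either way. The ratios were methanol over glucose in wild type, methanol over glucose in LA001-14, LA001-14 over wild type on glucose, and LA001-14 over wild type on methanol. Each ratio had 1 CPM added to both means and was centred on its median over the 5034 genes with a mean count of at least 50, LDH left out. Of these, 1708 reached 100 CPM, and the 79 steady genes were 4.63% of them. The 79 genes were chosen by these measured ratios and this level, so those values are given as a description and were not tested, and the 1629 other abundant genes serve as the comparison.

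The wild type is C. boidinii CICC#33029, and LA001-14 is a strain engineered from it to produce L-lactic acid. Per the labels, LA001-14 carries an expression cassette for lactate dehydrogenase (PENO1-BtL-LDH-TTEF2) and another for kanamycin resistance (PTDH3-KanR-TTEF2), both at random chromosomal positions. Each strain was sampled after 6 h in YPD with 2% (w/v) glucose or in YPM with 2% (w/v) methanol, with 3 libraries per group. The labels describe LA001-14 as 1 strain and do not say how many independent integrants were sequenced, so a strain difference is one between these lines. They call the replicates biological without naming separate cultures, and all spreads below are between libraries. LDH reads matched the strain labels, with at least 16132 in each of the 6 LA001-14 libraries, none in 5 wild-type libraries and 1 in the remaining one.

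Methylotrophic yeasts oxidise methanol in peroxisomes with alcohol oxidase, and genes of methanol use are held down by glucose and strongly induced on methanol. Lactate dehydrogenase turns pyruvate into lactate and so draws on the end of glycolysis. A set of transcripts whose level stays put through such a shift is what quantitative PCR uses as reference genes, commonly genes of translation, the cytoskeleton or core metabolism in yeasts. The files identify genes only by CB numbers without names, so no role, pathway, position or sequence is given for any of the 79, and no pathway list could be set beside them. A level in bulk RNA is a share of all reads, and it cannot tell transcripts per cell from the amount of other RNA. Steady here therefore means steady relative to the typical gene.

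Total counts ranged from 8045977 to 14107813 per library. The 79 genes held between 121380 and 252282 reads in a library, and the lowest count of any of them in any library was 654, so counting error was small: at the median gene's mean count it corresponds to an SD of 0.036 on the log2 scale. By group, the 79 genes took 1.56% ± 0.098 of the counts in wild type on glucose and 1.505% ± 0.014 in wild type on methanol. In LA001-14 they took 1.76% ± 0.032 on glucose and 1.85% ± 0.054 on methanol (SD, n = 3 each). All 1708 abundant genes together took 83.5% to 88.2% of a library, so most of the messenger pool lay outside the steady set. The share was higher in every LA001-14 library (1.72% to 1.90%) than in any wild-type library (1.48% to 1.67%); the rule centres each ratio and the share does not.

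Replicate 1 of wild type on glucose was unlike its 2 fellow libraries. Its chi-square per degree of freedom against the other 2 replicates was 25.03 and 32.3, against 5.59 between those 2. Without it the rule found 69 genes, 65 of them among the 79.

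Before centring, the median gene stood 0.22 higher (log2 of unscaled CPM) in LA001-14 than in wild type on glucose and 0.27 higher on methanol. It stood 0.11 lower on methanol than on glucose in wild type, and 0.017 higher in LA001-14. In unscaled CPM the 79 genes followed these shifts, with median ratios of 0.21 and 0.30 for the strain on glucose and methanol and -0.072 and 0.068 for methanol in wild type and LA001-14. On methanol all 79 had a positive unscaled strain ratio, between 0.039 and 0.57, and 41 of them lay at or beyond 0.3. Steadiness of these genes is thus tied to the scaling. If the same windows are set on unscaled CPM without centring, 69 genes pass, of which 31 are among the 79 (39.2% of the 79 and 44.9% of the 69). With library sizes scaled by TMM, which trims the genes with the most extreme ratios, and no centring, 70 pass and 66 of them are among the 79 (83.5% and 94.3%). Levels of single libraries and groups below are TMM-scaled CPM, while a mean CPM over the 12 libraries, which sets the floor, the ranks and the level classes, is unscaled as in the rule.

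Each window alone admitted between 28.7% and 35.3% of the abundant genes. The methanol ratio lay inside it for 490 genes in wild type and for 603 in LA001-14, and the strain ratio for 603 on glucose and 577 on methanol. Both methanol windows held 192 genes, and both strain windows held 230. Only 79 passed all 4, while 146 passed exactly 3, 507 exactly 2, 505 exactly 1 and 471 none. Among the 146 that failed on a single ratio, 53 failed on methanol in wild type, 30 on methanol in LA001-14, 32 on the strain on glucose and 31 on the strain on methanol. The 4 ratios are not independent, because any 3 of them fix the other one up to the centring.

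**Figure D1:**
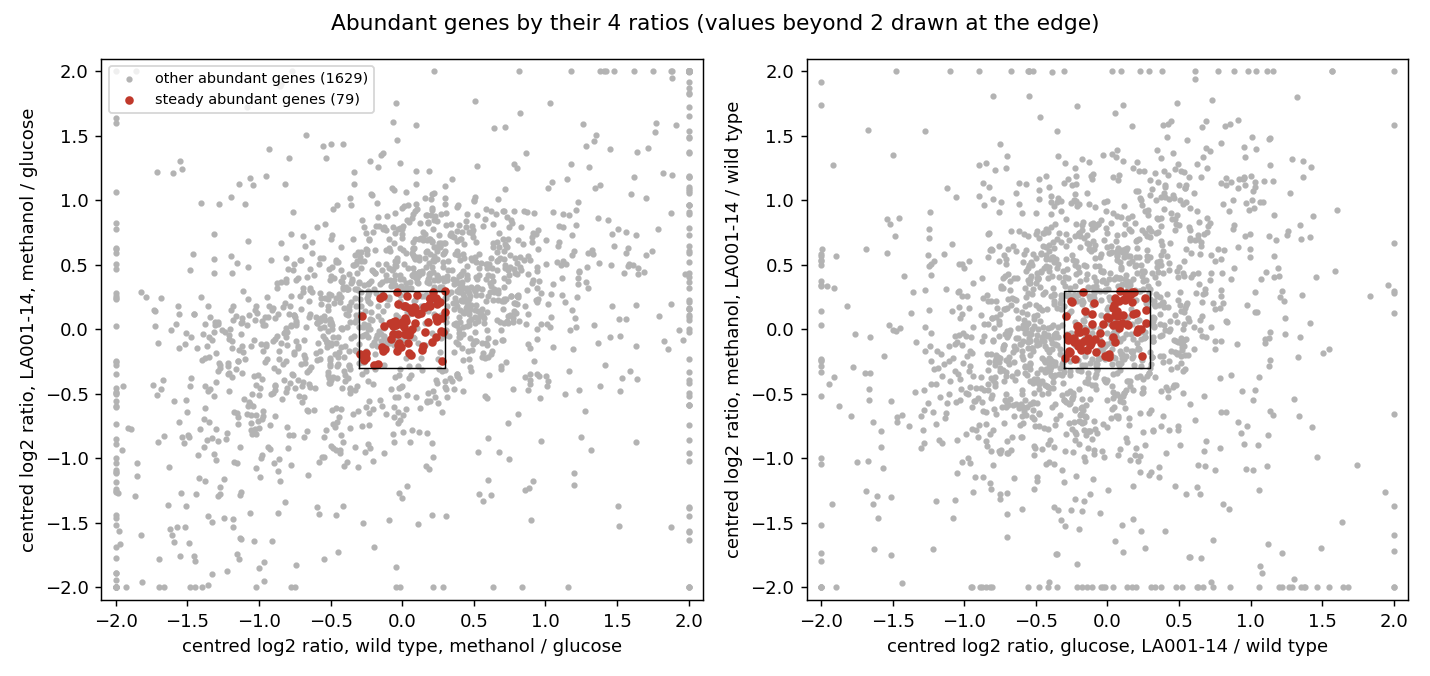
Centred log2 ratios of the abundant genes, with methanol over glucose in wild type against the same in LA001-14 (left) and LA001-14 over wild type on glucose against the same on methanol (right). Red points are the 79 steady genes, grey points the 1629 other abundant genes, and the square marks -0.3 to 0.3; grey points inside one square fail a window of the other panel, and values beyond 2 are drawn at the edge.

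Within their windows the 79 genes used most of the room. The largest absolute ratio of a gene had a median of 0.24 and ran from 0.063 to 0.30, against a median of 0.94 among the other abundant genes. It stayed under 0.1 for 4 genes, under 0.15 for 11 and under 0.2 for 26. The ratio that came nearest to its limit was methanol in wild type for 19 genes, methanol in LA001-14 for 15, the strain on glucose for 23 and the strain on methanol for 22. The methanol ratios of the 2 strains, which share no library, had the same sign in 52 of the 79 genes and opposite signs in 27. For the strain ratios on the 2 carbon sources, which share no library either, the counts were 61 and 18. The windows on one pair of ratios also limit how far the other pair can differ, and signs were not counted in other genes. No agreement is therefore read from these counts.

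The tightest gene by this measure was CB1602.t1 (coding length 2004 bases), with a largest absolute ratio of 0.063. Its 3 libraries stood at 141, 144 and 157 CPM in wild type on glucose and at 150.2, 157 and 153 CPM in wild type on methanol. In LA001-14 they stood at 168, 157 and 138 CPM on glucose and at 163, 149 and 160.2 CPM on methanol. The 4 groups overlapped in every comparison, and the highest and the lowest library were both LA001-14 on glucose. CB5272.t1 (2061 bases, largest ratio 0.086) had the smallest range of all 79 genes over the 12 libraries. It ran from 171 CPM in a wild-type methanol library to 193 CPM in a LA001-14 glucose library, 1.13-fold apart, and its groups overlapped throughout. CB4572.t1 (2913 bases, largest ratio 0.089) had group means of 132 ± 5.45, 135 ± 7.15, 124 ± 11.1 and 127 ± 6.29 CPM in wild type on glucose and methanol and LA001-14 on glucose and methanol. Its libraries lay between 111 and 143 CPM and overlapped in all 4 comparisons.

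Per base of coding sequence, 6 of the steady genes stood out, and they are described by the authors' FPKM (reads scaled by coding length and library total), which allows levels of different genes to be compared. The median of mean FPKM was 74.4 over the 79 genes and 137 over the other abundant genes. CB3311.t1 (555 bases) was the highest, at 1114 ± 117 FPKM in wild type on glucose, 1085 ± 27.5 on methanol, 1396 ± 105 in LA001-14 on glucose and 1413 ± 85.6 on methanol. These FPKM are not TMM-scaled and keep the shift of the median gene between the strains. In TMM-scaled CPM the same libraries overlapped in all 4 comparisons, at 532, 667 and 752 CPM in wild type on glucose, 691, 704 and 661 on methanol, 782, 682 and 628 in LA001-14 on glucose and 808, 671 and 728 on methanol. The lowest value was in wild type on glucose and the highest in LA001-14 on methanol, and its replicate SD was 0.17 on the log2 scale.

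CB4178.t1 (2013 bases) was the most abundant steady gene in CPM, ranking 106 among all rows, and it showed how ordered a gene inside the windows can still be. Its libraries stood at 1388, 1314 and 1388 CPM in wild type on glucose and at 1532, 1590.2 and 1508 CPM on methanol. In LA001-14 they stood at 1158, 1101 and 1150 CPM on glucose and at 1426, 1358 and 1281 CPM on methanol. In TMM-scaled CPM, groups that differ in 1 factor did not overlap in any of the 4 comparisons. Methanol libraries were higher than glucose libraries in each strain, and LA001-14 libraries lower than wild-type libraries on each carbon source. All 12 values nevertheless lay within 1.44-fold, and its replicate SD was 0.053 on the log2 scale. In FPKM, which is not TMM-scaled, CB4178.t1 had means of 649 ± 55.2 and 674 ± 15.5 in wild type on glucose and methanol. In LA001-14 they were 629 ± 24.0 and 718 ± 28.5, so on methanol LA001-14 had the higher mean.

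The next 4 by FPKM varied in other ways. CB3476.t1 (870 bases, mean 587 FPKM) had overlapping libraries on the 2 carbon sources in each strain. Its means were 558 ± 58.7 CPM (glucose) and 552 ± 17.4 CPM (methanol) in wild type, and 475 ± 19.3 and 467 ± 20.9 CPM in LA001-14. On methanol all LA001-14 libraries of CB3476.t1 lay below all wild-type libraries, while on glucose a wild-type library at 490.4 CPM fell inside the LA001-14 range. In library totals without scaling its strain ratio on methanol turns to 0.039 on the log2 scale. CB3232.t1 (645 bases, 578 FPKM) ranged from 329.9 to 422 CPM with both ends among the LA001-14 glucose libraries, and its groups overlapped except between the strains on methanol.

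CB4585.t1 (456 bases, 517 FPKM) was lower in LA001-14 on glucose, at 201, 184 and 222 CPM, than in any other library, where it stood between 230.6 and 258 CPM. CB2821.t1 (1236 bases, 494 FPKM) was lower in wild type on glucose, at 549, 519.6 and 515 CPM, than in any other library, where it stood between 583 and 669.9 CPM. In both genes 1 of the 4 groups stood apart in TMM-scaled CPM and the other 3 overlapped, with each difference still inside the windows. In FPKM, which is not TMM-scaled, CB4585.t1 had means of 518 ± 16.6 and 487 ± 15.6 in wild type on glucose and methanol. In LA001-14 they were 495 ± 56.9 and 568 ± 4.01, so LA001-14 on glucose was not the lowest group. CB2821.t1 was lowest in wild type on glucose in FPKM too, at 410 ± 43.5. CB2821.t1 had a centred ratio of 0.27 for methanol in wild type and of -0.016 in LA001-14.

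**Figure D2:**
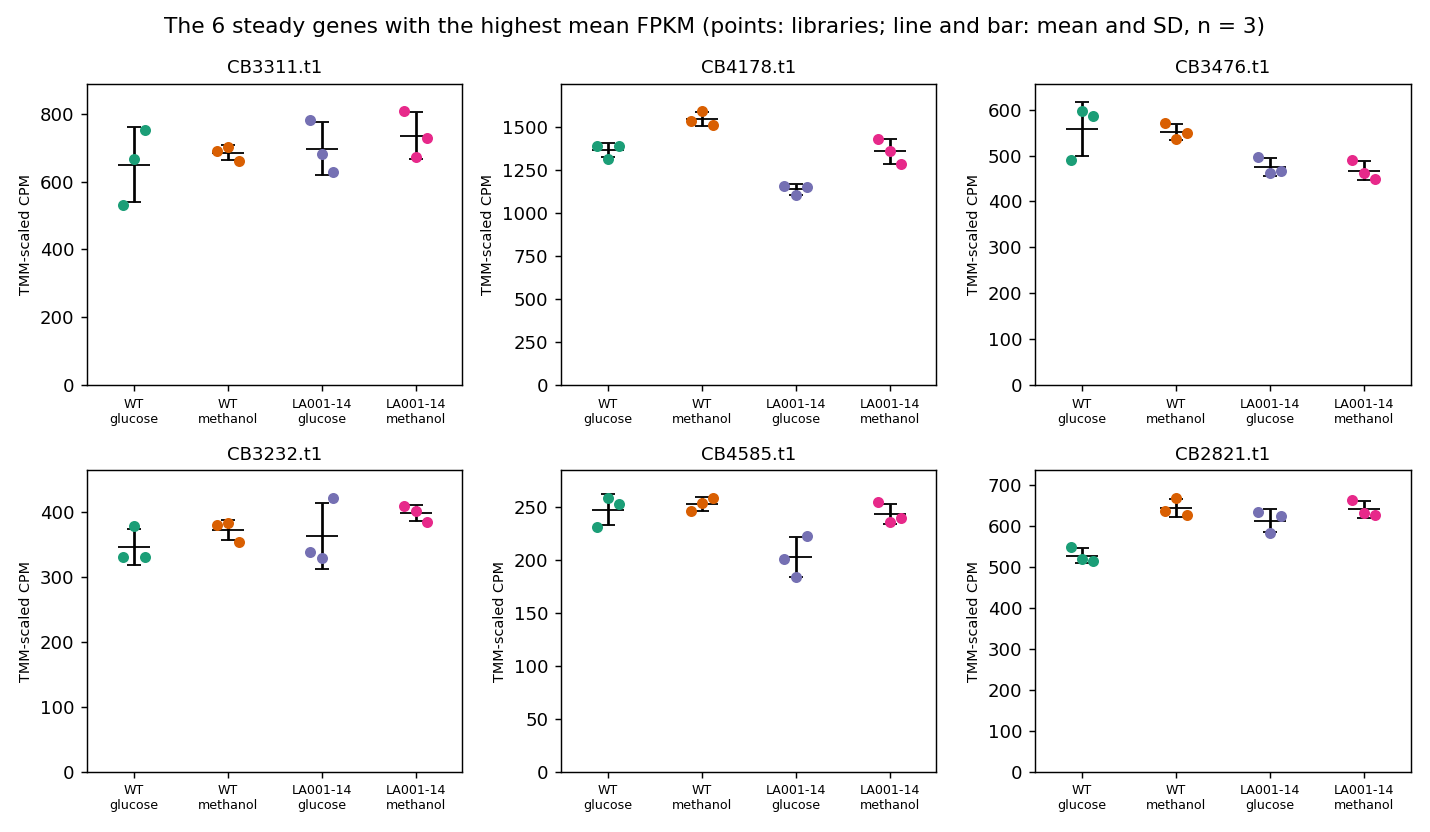
TMM-scaled CPM (vertical axis, from 0) of the 6 steady genes with the highest mean FPKM in each of the 4 groups on the horizontal axis. Points are libraries, and the line and bar are the mean and SD of 3; CB4178.t1 lies between 1101 and 1590.2 CPM without overlap between groups that differ in 1 factor, and CB3311.t1 between 532 and 808 CPM with overlap in those comparisons.

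Over the 79 genes, the highest and the lowest group mean were a median of 1.22-fold apart, with a range of 1.06 to 1.42-fold. The highest and the lowest single library were a median of 1.37-fold apart, and at most 1.66-fold. All 79 stayed under 2-fold over the 12 libraries and 68 under 1.5-fold. Of the 1629 other abundant genes, 557 stayed under 2-fold and 80 under 1.5-fold, and their median was 2.40-fold. The rule bounds the group means of the 79 genes, and each other abundant gene lies outside a window. This contrast therefore follows in part from the rule and is not read as a result. The gene mean was highest in LA001-14 on methanol for 34 of the 79, in wild type on methanol for 26, in LA001-14 on glucose for 10 and in wild type on glucose for 9. It was lowest in LA001-14 on glucose for 30, in wild type on glucose for 25, in wild type on methanol for 14 and in LA001-14 on methanol for 10. This order depends on the scaling as described above.

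**Figure D3:**
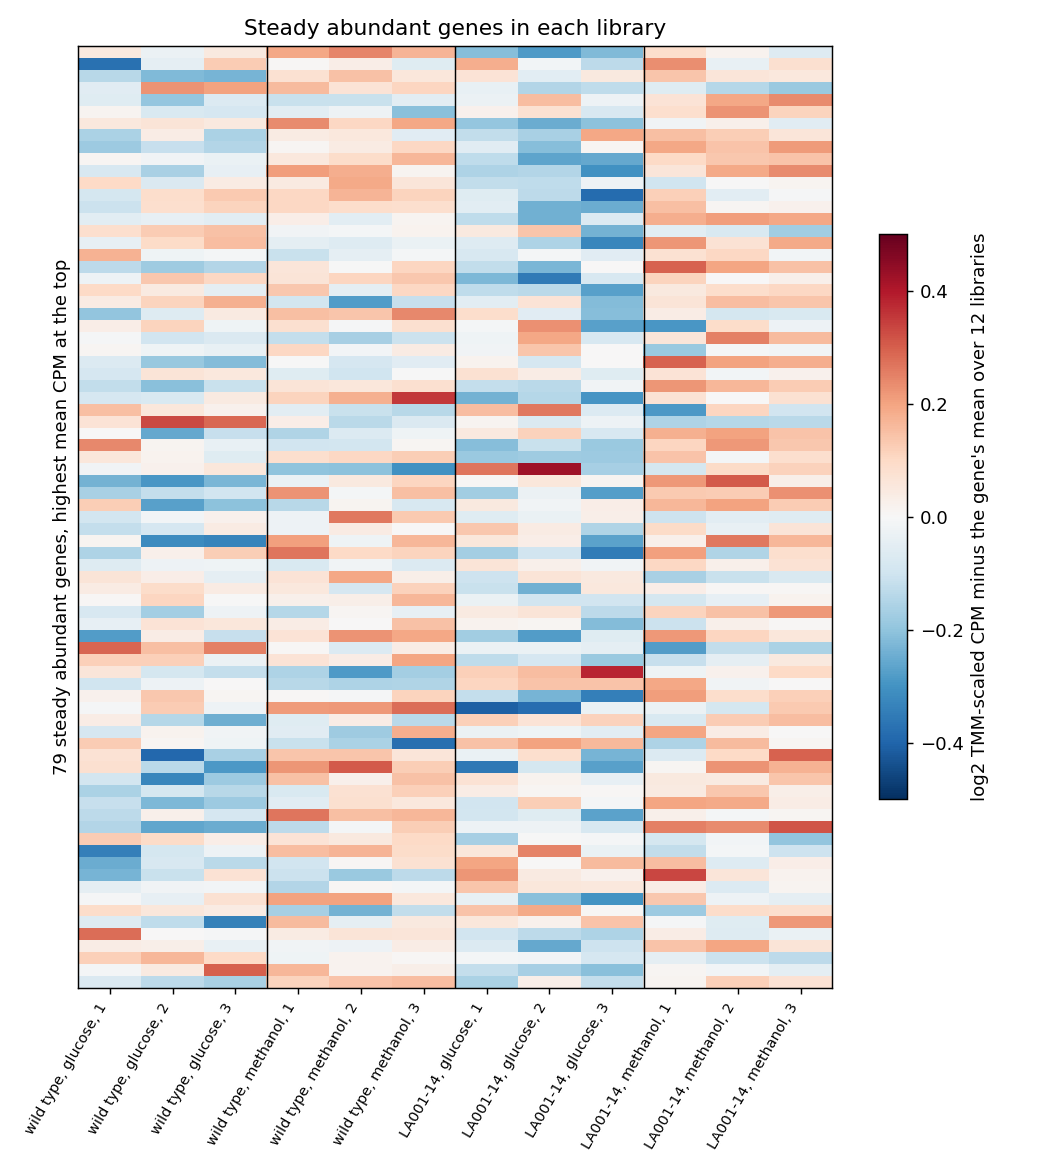
Each row is 1 of the 79 steady genes, ordered by mean CPM, and each column 1 of the 12 libraries, with replicate numbers after the group. Colour is the log2 TMM-scaled CPM minus the gene's mean over the 12 libraries, from -0.5 (blue) to 0.5 (red); no gene spans more than 1.66-fold between its lowest and its highest library.

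A ratio inside the windows did not mean that no difference could be seen. In an edgeR quasi-likelihood fit of 5466 genes with Benjamini-Hochberg adjusted p under 0.05, each of the 4 pairwise comparisons called 27 of the 79 genes. The percent called over all genes was 70.3 for methanol in wild type, 64.5 for methanol in LA001-14, 62.6 for the strains on glucose and 65.7 for the strains on methanol. By direction the percent called higher and lower was 35.0 and 35.3, 34.7 and 29.7, 30.9 and 31.7, and 32.8 and 32.9 in the same order. Because the rule used these comparisons, a low share among the 79 follows from it and is not read as a result. Methanol calls in wild type and in LA001-14 shared 11 genes, 40.7% of each list, of which 10 changed in the same direction. Over all genes tested, the calls of either comparison were shared at 69.3% and 75.6%, and 74.4% of the 2663 shared calls had the same direction. Strain calls on glucose and on methanol shared 9 genes, 33.3% of each list, of which 6 had the same direction. Over all genes tested the shares were 70.7% and 67.3%, and 64.0% of the 2416 shared calls had the same direction. The windows also limit how far the ratios of a pair can differ, so neither overlap nor direction among the 79 is read as a result. Absolute log2 fold changes of the called genes ran from 0.18 to 0.37. Without wild type on methanol replicate 2 the strain comparison on methanol called 17 of the 79, and without LA001-14 on methanol replicate 3 it called 16. Without wild type on glucose replicate 1, which stood apart, the 4 counts were 24, 31, 29 and 28.

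The direction of these calls depended on the scaling. For methanol in wild type, 21 genes were called higher and 6 lower with TMM. Upper-quartile scaling gave 1 higher and 17 lower there, and library totals gave 1 and 15. In LA001-14 the split was 27 and 0 with TMM, 22 and 5 with RLE, 21 and 5 with upper-quartile scaling, 17 and 3 with library totals, and 24 and 7 without wild type on glucose replicate 1. Between the strains on glucose it was 8 higher and 19 lower in LA001-14 with TMM, 16 and 11 with RLE, 39 and 0 with library totals, and 17 and 12 without that library. On methanol it was 17 and 10 with TMM, 24 and 1 with upper-quartile scaling and 52 and 0 with library totals. The median log2 change of all genes moved from 0.0048 with TMM to 0.28 with library totals in the last comparison, where the median absolute change of the 79 genes was 0.12 with TMM. No direction is therefore drawn for the set.

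Of the 79 genes, 19 were called in none of the 4 pairwise comparisons, 23 in 1, 27 in 2, 9 in 3 and 1 in all 4. Over all genes tested, 7.74% were called in none and 28.4% in all 4. The gene called in all 4 was CB4178.t1, whose small replicate spread is given above. Its calls for methanol in LA001-14 and for the strain on glucose held without any single library. The call for methanol in wild type was lost without wild type on glucose replicate 2 or wild type on methanol replicate 1 or 2, and that for the strain on methanol without wild type on methanol replicate 1 or 2 or LA001-14 on methanol replicate 2 or 3. With library totals the calls for methanol in wild type and for both strain comparisons were lost. Upper-quartile scaling ended those for methanol in wild type and for the strain on methanol, and a fit of the compared libraries alone ended that for methanol in wild type. The 19 uncalled genes had unscaled mean CPM from 102 to 695 and group means at most 1.17-fold apart, and 15 of them stayed under 1.3-fold over the 12 libraries. They include CB3311.t1, CB3232.t1, CB1602.t1, CB4572.t1 and CB5272.t1. Failing the test does not show sameness.

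The size of difference left by the spread between replicates can be read from intervals. In a limma fit on log2 CPM, every 95% interval of the 4 pairwise differences lay within 1.5-fold, that is between -0.585 and 0.585 on the log2 scale, for 79 of 79 genes. The half-width of the interval had a median of 0.16 and ran from 0.13 to 0.23. Among the 1629 other abundant genes, 108 also had all 4 intervals inside 1.5-fold. The count of 79 is a description and no evidence of sameness, since the rule had placed the centres of the intervals near 0. The width was close to that of the other abundant genes, whose median half-width was 0.17. They also hold for the scaling used, and with library totals 50 of the 79 had all 4 inside. Without wild type on glucose replicate 1 the number was 76.

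A further view came from libraries left out when genes were chosen. The rule itself was set with earlier results of these data known. When the rule was applied to 2 replicates of each group and the genes so chosen were read in the 4 libraries left out, 35 of 69 chosen without replicate 1 (50.7%) again lay inside all 4 windows. For replicate 2 it was 38 of 76, and for replicate 3 it was 41 of 78 (52.6%). These lists differ from the 79 genes, with 56, 63 and 66 of their genes among the 79. Of the abundant genes not chosen, 3.35%, 1.47% and 2.09% lay inside the windows in the same left-out libraries. The largest absolute ratio of the chosen genes in the left-out libraries had medians of 0.299, 0.299 and 0.298, against 0.916, 0.982 and 0.966 for the abundant genes not chosen. Here each group is 1 library, so its ratios carry the whole replicate spread. With a limit of 1.5-fold in place of the windows, 66 of 69, 75 of 76 and 76 of 78 held in the left-out libraries, and the largest single ratio was 0.73. Of the abundant genes not chosen, 22.0%, 19.8% and 19.6% lay within 1.5-fold there. Most genes so chosen thus lay within 1.5-fold in the libraries left out, whereas about as many fell outside the narrower windows as inside them.

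Membership near the limits was a matter of small differences. The 2 genes just inside the windows were CB1990.t1 (4233 bases), with a largest ratio of 0.2995 for methanol in wild type, and CB1418.t1 (3279 bases), with 0.2986 for the strain on methanol. The 2 genes just outside were CB1353.t1 (8910 bases), at 0.301 for the strain on methanol, and CB2316.t1 (4653 bases), at 0.304 for methanol in wild type. At the level limit, CB0724.t1 and CB1689.t1 stood just inside with unscaled mean CPM over the 12 libraries of 100.2 and 100.4, and CB4569.t1 and CB0997.t1 just outside with 99.7 and 99.1. Leaving out each of the 12 libraries in turn gave 69 to 83 members, with the lowest number without wild type on glucose replicate 1, and 44 of the 79 stayed members each time. CB1990.t1 had a mean of 106 ± 13.8 CPM in wild type on glucose and 133 ± 8.31 CPM on methanol, and of 96.8 ± 9.47 and 126 ± 9.68 CPM in LA001-14, so methanol libraries lay above glucose libraries in each strain.

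The share of steady genes was smaller at higher levels, a property the rule used only as a floor. They made up 52 of 867 genes (6.00%) from 100 to 200 CPM, 23 of 522 (4.41%) from 200 to 500, 3 of 169 (1.78%) from 500 to 1000 and 1 of 150 (0.667%) above 1000 CPM. CB4178.t1, the steady gene with the highest mean CPM, had 104 abundant genes above it. Below the floor, 241 of 3326 genes with a mean under 100 CPM (7.25%) lay inside the 4 windows. The median of the largest absolute ratio went from 0.81 at 100 to 200 CPM to 0.89, 1.18 and 1.22 in the higher classes, while the median replicate SD stayed between 0.093 and 0.10. Methanol in wild type had the widest ratios in the top class, with a median absolute value of 1.06 against 0.45 for methanol in LA001-14.

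Steady genes were also longer. Their coding length had a median of 2145 bases (quartiles 1459.5 and 3330), against 1590 bases (948 and 2610) for the other abundant genes. Of the abundant genes, 12 of 569 (2.11%) in the shortest of 3 length classes, 28 of 572 (4.90%) in the middle class and 39 of 567 (6.88%) in the longest class were steady. Length and level move together, since the mean CPM of the length classes had medians of 235, 194 and 175. From 100 to 200 CPM, where those medians were 136, 139 and 136, the shares were 2.87%, 5.69% and 8.64%. From 200 to 500 CPM they were 1.70%, 5.73% and 5.82%, and above 500 CPM only 4 genes were steady and none of the 54 in the longest class was. The replicate SD did not follow the same order, with medians of 0.11, 0.091 and 0.10 from the shortest to the longest class. Below 100 CPM the difference was smaller, at a median of 1497 bases inside the windows and 1395 outside. CPM is not divided by coding length, so at equal CPM a longer gene has a lower level per base. The median of mean FPKM was 74.4 over the steady genes and 137 over the other abundant genes, and no classes by FPKM were made. Whether length itself, the level per base, or the kinds of protein that long genes encode went with steadiness was not tested.

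**Figure D4:**
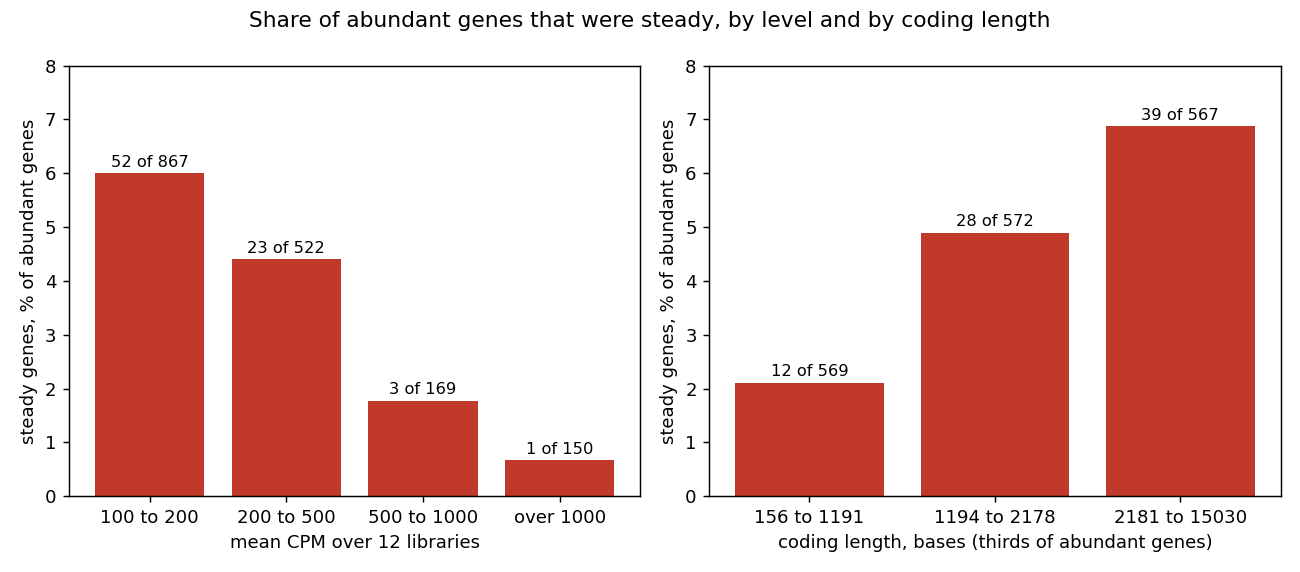
Share of abundant genes that were steady (vertical axis, percent, from 0) by mean CPM class (left) and by class of coding length in bases (right), with the number of steady genes and of all abundant genes above each bar. The share goes down from 6.00% to 0.667% with level and up from 2.11% to 6.88% with length.

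The spread between replicates was small in both sets of genes. The SD between replicates, pooled over the 4 groups, had a median of 0.086 on the log2 scale (quartiles 0.071 and 0.11) over the 79 genes and of 0.10 (0.078 and 0.13) over the other abundant genes, of which 33.3% lay under the steady median. A gene with noisy replicates passes 4 windows less often, so the rule itself favours a small spread, and the 2 distributions overlapped widely. In the level class from 100 to 200 CPM the medians were 0.087 and 0.11, and from 200 to 500 CPM 0.080 and 0.094. By group, the median over the 79 genes was 0.072 in wild type on glucose, 0.059 in wild type on methanol, 0.095 in LA001-14 on glucose and 0.064 in LA001-14 on methanol. Among the other abundant genes it was 0.10, 0.064, 0.092 and 0.078. The gap was widest in wild type on glucose, whose replicate 1 stood apart. In LA001-14 on glucose the steady genes had the slightly higher median.

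The quietest gene was CB1609.t1 (1938 bases), with a pooled SD of 0.035 on the log2 scale. Its libraries stood at 135, 139 and 139 CPM in wild type on glucose, 134, 139.9 and 135 on methanol, 148, 144 and 140.1 in LA001-14 on glucose and 152, 144 and 149 on methanol. All 6 LA001-14 libraries of CB1609.t1 lay above all 6 wild-type libraries, yet the ends were only 1.13-fold apart. CB1183.t1 (1251 bases), with an SD of 0.037, ran from 111 ± 2.65 CPM in wild type on glucose to 94.97 ± 3.02 CPM in LA001-14 on methanol. At the other end, CB3967.t1 (5934 bases) had an SD of 0.17, with 122, 88.5 and 104 CPM in wild type on glucose. CB3379.t1 (4794 bases), also at 0.17, had 189, 210.2 and 139.8 CPM in LA001-14 on glucose and the largest range of the 79 genes, 1.66-fold. Its 4 group means ran from 133 ± 5.34 CPM in wild type on methanol to 180 ± 36.1 CPM in LA001-14 on glucose.

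**Figure D5:**
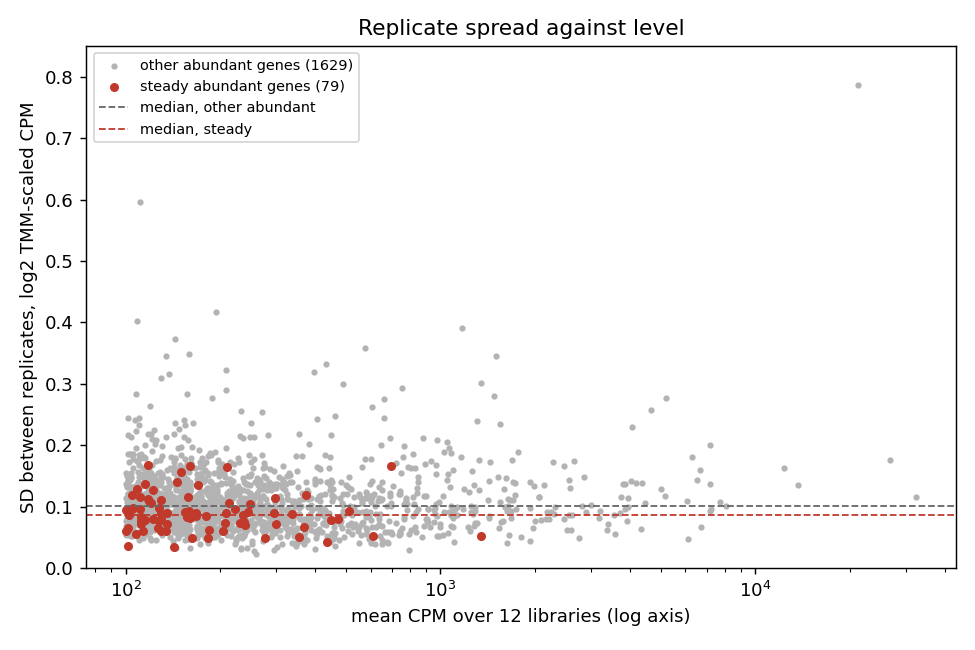
SD between replicates of log2 TMM-scaled CPM, pooled over the 4 groups (vertical axis), against mean CPM (horizontal, log axis) for the 79 steady genes in red and the 1629 other abundant genes in grey. Dashed lines are the medians, 0.086 and 0.10, and every steady gene lies at or below 0.17.

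In wild type on glucose replicate 1 the steady genes differed from the mean of the other 2 replicates by a median absolute log2 value of 0.092, against 0.14 for the other abundant genes. Only 4 of the 79 (5.06%) were beyond 0.3 there, against 277 of 1629 (17.0%). LA001-14 on glucose replicate 3 gave the most steady genes beyond 0.3, with 6 of 79 (7.59%), against 159 (9.76%) of the other abundant genes, and 54 of the 79 lay below the mean of its other replicates. Each library is part of a group mean that the rule used, so a gene that strayed far in it passed less often. The lower shares among the 79 follow in part from the rule and are not read as a result.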

How the data were processed

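Total RNA was extracted and sequenced as 12 libraries. The authors deposited, per the file headers, raw read counts per coding sequence, the coding length and FPKM for 5712 rows; recomputing FPKM from count, coding length and column total matched the deposited value with a largest relative difference of 2.4e-06 percent. The submitters' processing notes name Bowtie2 2.5.4; for counting program, genome build, annotation and strand, the sources used here give nothing. Coding lengths were multiples of 3 in 5701 rows. The rule was applied to the deposited counts. The edgeR 4.0.16 quasi-likelihood fit in R 4.3.3 used all 12 libraries, filterByExpr (5466 genes), TMM scaling and 1 mean per group; adjusted p-values are Benjamini-Hochberg. Intervals come from limma 3.58.1 on log2 CPM with a prior count of 2. DESeq2 1.42.0, other scalings, no filter, a replicate block and leaving out libraries were alternatives. Replicate SD is that of log2 TMM-scaled CPM about the group mean. The rule and the fits were tested on simulated data. In the simulation of the rule, planted steady genes lay clear of the level limit and other genes were given changes larger than the windows. The replicate spread given to the simulated counts was also smaller than the common spread that edgeR fitted to the data. This simulation therefore does not show how the rule acts near its limits or at the replicate spread of these libraries.

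Within each group, libraries differed beyond sampling noise (chi-square per degree of freedom 4.03 to 32.3). Genes were named by rules of rank: 6 highest FPKM, 3 smallest largest ratio, 2 on each side of each limit, 2 highest and 2 lowest replicate SD, and at most 1 called member per comparison and direction. The members, rule and tests were chosen with earlier results of these data known.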

Additional observations from a re-analysis of the deposited data

Results flagged for a closer look

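The methanol response differed between the strains, by a test of the difference itself (the edgeR interaction, adjusted p under 0.05), for 9 of the 79 steady genes, with 7 higher and 2 lower in LA001-14; over all genes tested the percent called was 58.7. The rule bounds both responses, so this low share follows from it. The split was 5 and 3 with RLE, 14 and 1 with upper-quartile scaling, 10 and 1 with library totals, and 6 and 4 without wild type on glucose replicate 1.

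CB1437.t1 (3381 bases) had the largest positive difference, 0.46 on the log2 scale. It went from 172 ± 18.1 to 157 ± 6.37 CPM on methanol in wild type, where the libraries overlapped, and from 145 ± 5.23 to 182 ± 7.19 CPM in LA001-14, where they did not. CB3845.t1 (3015 bases) had the largest negative one, -0.46. It went from 99.3 ± 11.2 to 121 ± 3.49 CPM in wild type and from 117 ± 11.8 to 104 ± 4.43 CPM in LA001-14. Both interaction calls held under the 6 other settings run and without each library. CB2821.t1 had -0.23, from 528 ± 18.4 to 645 ± 21.7 CPM in wild type and from 614 ± 27.4 to 642 ± 20.6 CPM in LA001-14 (SD, n = 3 throughout). Its call was at the threshold (edgeR adjusted p = 0.0498) and was lost under 4 of 6 other settings and without 9 of the 12 libraries, with adjusted p between 0.00397 and 0.202.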

How the results depend on the processing

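The number of members is set by its limits: a window of 0.2 gave 26 genes and 0.4 gave 180, and a floor of 50 CPM gave 171 and of 200 CPM 27. With library totals, 16 members were called for methanol in wild type, 52 for the strains on methanol, and 50 had all 4 intervals within 1.5-fold; by the upper quartile 15 had an interaction call. Without the 20 most abundant genes in the totals, members took 2.03%, 1.93%, 2.18% and 2.23% of counts in wild type on glucose and methanol and LA001-14 on glucose and methanol. With library totals the strain difference on methanol turned to 0.039 for CB3476.t1, 0.063 for CB3845.t1, 0.092 for CB4178.t1 and 0.050 for CB5336.t1 (log2). The cause was not tested beyond the shift of the median gene.

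Leaving out libraries gave 69 to 83 members, 19 to 29 calls for methanol in wild type, 25 to 31 in LA001-14, 19 to 29 for the strains on glucose, 16 to 29 on methanol, 6 to 10 for the interaction, 76 to 79 with all intervals inside, and a median replicate SD of 0.078 to 0.090. Member shares then ran from 1.504% to 1.597%, 1.497% to 1.509%, 1.74% to 1.77% and 1.82% to 1.87% in the same group order. Replicate numbers were taken as labels only. Deviations of same-numbered libraries correlated at -0.25 to 0.12, over 0.1 in 1 of 18 pairs, and those of differently numbered libraries at up to 0.18. These correlations cannot tell whether same-numbered libraries shared a batch, because deviations from a mean of 3 libraries are tied to each other. With the replicate block the 5 call counts were 26, 26, 25, 25 and 7.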
